A study of Sus scrofa with 6 samples.

Results

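Endothelial marker genes were followed in scraped porcine aortic valve leaflets, 1 animal per array. The list held 52 genes, chosen by name as markers of endothelial cells (ADGRL4 and ADGRF5 also stood on it under the older symbols ELTD1 and GPR116). Of these, 34 had at least 1 probe set on the Affymetrix Porcine Genome Array that the array annotation or the study's own list of called probe sets gives to that gene alone, out of 6765 genes in the annotation. They had 54 probe sets among the 23999 that are not controls, and each gene was represented by the probe set with the highest mean over the 6 arrays. The other 18 genes, EMCN, THSD1, PTPRB, ROBO4, ADGRF5, SOX7, SOX17, SOX18, TAL1, MMRN1, MMRN2, ESM1, STAB1, PLVAP, RASIP1, AFAP1L1, MYCT1 and CYYR1, had no matched probe set and are not analysed here. PODXL, CLEC14A and ARHGEF15 were named through the study's list alone. That list names only probe sets called different between the sexes in these animals, which makes their direction no independent evidence.

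The tissue came from 3 castrated male and 3 female pigs of mixed breed, 5 months old and weighing about 90 kg. Leaflets were taken within 5 hours of death from hearts of a commercial slaughterhouse, and in both sexes the endothelium was scraped off with a scalpel before whole-leaflet RNA was isolated. The males were castrated, so the comparison is not one of intact males with females. The deposited log2 values came from Robust Multi-array Analysis (RMA) by the authors, which corrects for background, normalizes the arrays to each other and summarizes the probes of a set.

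Endothelium is the sheet of cells that meets the blood, on heart valves as in vessels. Beneath it, the leaflet is a matrix kept up by fibroblast-like cells, the valvular interstitial cells (VICs). Endothelial cells hold together through VE-cadherin and other junction proteins, store von Willebrand factor and P-selectin for release on activation, sense flow and growth factors through receptors such as TIE1 and TEK, and make nitric oxide. Many of their genes are shared with platelets, leukocytes or stromal cells, so a marker is best read beside markers of those cells.

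The sex labels held on each of the 6 arrays, with the Y-linked DDX3Y at 11.54 to 11.74 in males and 3.61 to 4.42 in females, and XIST, the RNA of the inactive X chromosome, at 4.06 to 4.40 in males and 11.34 to 11.82 in females. The array medians lay between 7.33 and 7.38, the 25th percentiles between 5.47 and 5.59 and the 75th percentiles between 9.19 and 9.25. Over all probe sets the correlation was 0.987 to 0.993 between arrays of 1 sex and 0.972 to 0.987 across sexes. With 3 arrays per sex, the precision of each comparison is limited by their number.

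At the probe set with the highest mean, each defining endothelial gene was read at high signal in the scraped leaflets of all 6 animals. PECAM1, an adhesion molecule of endothelial junctions that platelets and leukocytes also carry, had log2 values of 13.69, 13.31 and 12.61 on male replicates 1, 2 and 3, and 12.16, 12.28 and 11.83 on female replicates 1, 2 and 3. CDH5, which encodes VE-cadherin, the adherens junction protein of endothelium, was at 11.44, 10.83 and 9.85 in males and 9.60, 10.48 and 9.35 in females. VWF, which encodes von Willebrand factor, was at 10.58, 10.90 and 9.68 in males and 9.27, 11.33 and 9.41 in females. At these probe sets, the highest of each gene, all 3 lay above the 75th percentile on each of the 6 arrays. The second probe set read 8.93 to 11.27 for PECAM1 and 5.27 to 7.53 for CDH5, and the others of VWF read 5.95 to 6.62. VWF is the protein whose staining the study used to check the scraping on parallel leaflets, and the study reported the removal as successful. The arrays read RNA of other leaflets, which was not compared with that staining. Among the 34 markers, at the probe set taken for each, 14 were above the 75th percentile and 26 above the median on all 6 arrays. None was under the 25th percentile on all of them. Taking the probe set with the highest mean favours high positions, and no matching share over all genes was taken. Probe sets differ in how strongly they bind, so these positions describe the range in which a probe set was read and do not rank the genes. The arrays hold no unscraped leaflet, so how much endothelium the scraping removed was not measured.

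Most endothelial markers were higher in male leaflets. Of the 34 genes, 30 had a higher mean in males, and the median log2 ratio (the log2 fold change, male minus female) was 0.79, a 1.73-fold difference. Over all 23999 probe sets the mean was higher in males in 49.1% and the median log2 ratio was -0.01, and over the annotated genes, 1 probe set each, these were 58.3% and 0.05. The 3 male values lay above the 3 female values in 14 of the 34 genes, against 11.1% of all probe sets and 15.7% of the annotated genes. These 14 include PODXL, CLEC14A and ARHGEF15, which were named because they had been called. Of the 31 markers named by the annotation, 11 had all male values above the female values. The male values lay below in 1 of the 34, BMX, against 11.4% of all probe sets. The other 19 genes overlapped between the sexes. In whole-leaflet RNA, fewer endothelial cells and less RNA of these genes per cell cannot be told apart.

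Over all probe sets, limma called 0 of the 34 markers at an adjusted p under 0.05 and 2-fold or more. Of the 23999 probe sets it called 0.304%, 0.167% as higher and 0.138% as lower. At an unadjusted p under 0.05, 17 markers were higher and 1 lower, where 8.08% and 8.83% of all probe sets were. The adjusted p values of the markers from this limma fit ran from 0.0732 (LMO2) to 0.848 (SELE). With array weights, which give less weight to arrays that depart from their group, limma called 11, all higher in males, where it called 0.708% of all probe sets higher in that fit. Male replicates 1, 2 and 3 had weights of 0.75, 3.82 and 0.71. Female replicates 1, 2 and 3 had 1.01, 0.47 and 1.04. The male side of that fit thus leaned mostly on 1 animal, male replicate 2. The authors filtered on the coefficient of variation (CV, the SD divided by the mean) before the test, and 18 of the 34 markers were among the 10% that varied most by this measure over the 6 arrays. With that filter limma called 8 markers, all higher in males, where it called 7.59% of the 2412 probe sets kept, 4.60% as higher and 2.99% as lower. The filter keeps a probe set more readily when the sexes differ, and 3 of the 8 were named because they had been called, so the count of 8 is given as a description. Of the 31 markers named by the annotation, 27 were higher in the male mean, the median log2 ratio was 0.61, and 5 were called with the CV filter. At an unadjusted p under 0.05 from limma, 14 of these 31 were higher, where 8.08% of all probe sets were.

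**Figure D1:**
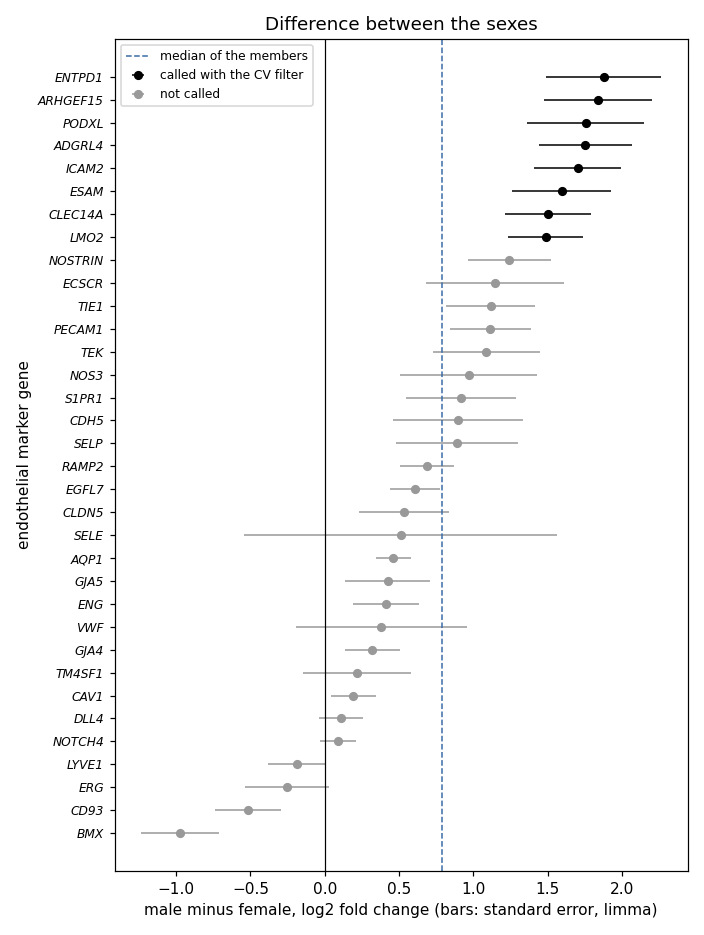
Log2 ratio (male minus female) of the 34 endothelial markers with its standard error from limma over all probe sets, with the 8 genes called with the CV filter in black and the others in gray. The dashed line is the median of the markers (0.79), and 4 genes (LYVE1, ERG, CD93 and BMX) lie below 0.

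All 10 measured junction and adhesion genes had a higher mean in males, with log2 ratios from 0.32 to 1.76, and ESAM, ICAM2 and PODXL rose with the CV filter. ESAM, an adhesion molecule of endothelial tight junctions, was at 10.18, 9.66 and 8.90 in males and 7.81, 8.42 and 7.72 in females. The sexes did not overlap, and the log2 ratio was 1.59 (standard error 0.34, adjusted p = 0.0395 from limma after the CV filter and 0.115 over all probe sets). ICAM2, a ligand of leukocyte integrins, was at 10.28, 9.92 and 9.14 in males and 8.31, 8.15 and 7.78 in females. Its log2 ratio of 1.70 (standard error 0.29, adjusted p = 0.0260 from limma after the CV filter and 0.0751 over all probe sets) is a 3.25-fold difference. PODXL, a sialomucin of the surface that faces the blood, was at 11.82, 11.63 and 10.76 in males and 9.45, 10.41 and 9.09 in females (log2 ratio 1.76, adjusted p = 0.0371 from limma after the CV filter and 0.125 over all probe sets). In these 3 genes the lowest male, replicate 3, stood above every female.

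PECAM1 was without overlap as well, with a male mean of 13.20 ± 0.55 (SD, n = 3) and a female mean of 12.09 ± 0.24 (SD, n = 3). Its log2 ratio was 1.11 (standard error 0.27, adjusted p = 0.144 from limma over all probe sets), and its second probe set gave 1.23. CDH5 did overlap, since female replicate 2 (10.48) exceeded male replicate 3 (9.85). CDH5 had a male mean of 10.71 ± 0.80 (SD, n = 3) and a female mean of 9.81 ± 0.59 (SD, n = 3), with a log2 ratio of 0.90 (standard error 0.44, adjusted p = 0.355 from limma), and 1.12 at its second probe set. The tight junction gene CLDN5 had a log2 ratio of 0.53, from 8.52, 8.36 and 8.23 in males and 7.14, 8.46 and 7.90 in females. For CLDN5 the 3 males lay within 0.29 of each other, while females spread over 1.32, with replicate 1 apart. The connexins GJA4 and GJA5, which form gap junctions of arterial endothelium, had log2 ratios of 0.32 and 0.42, did not pass over all probe sets and were not kept by the CV filter.

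The selectins, which catch leukocytes on activated endothelium, differed in which arrays were high. SELE, which endothelial cells make on exposure to inflammatory cytokines, was at 6.99, 8.47 and 5.73 in males and 5.93, 8.80 and 4.92 in females. It was highest on female replicate 2 and next on male replicate 2. The within-sex SD of SELE was 1.72, the largest of the 34 markers, and its log2 ratio of 0.51 had a standard error of 1.05. SELP, which is stored ready for release and was highest on male replicate 1 like most markers, was at 10.10, 9.92 and 8.77 in males and 8.42, 9.39 and 8.31 in females, with a log2 ratio of 0.89 (adjusted p = 0.332 from limma over all probe sets).

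Secreted VWF, like SELE, peaked on female replicate 2. VWF had a male mean of 10.39 ± 0.63 (SD, n = 3) and a female mean of 10.01 ± 1.15 (SD, n = 3), a log2 ratio of 0.38 with a standard error of 0.57 (adjusted p = 0.787 from limma over all probe sets). The 11.33 of female replicate 2 was the highest VWF value of the 6 arrays, while the other 2 females (9.27 and 9.41) were the lowest. Without female replicate 2 the log2 ratio of VWF was 1.04 and without female replicate 1 it was 0.01. The 2 other probe sets of VWF read 5.95 to 6.62 on all arrays, with log2 ratios of 0.01 and 0.14. EGFL7, a secreted protein of endothelial cells, was at 9.61, 9.29 and 8.97 in males and 8.74, 8.76 and 8.56 in females. EGFL7 did not overlap between the sexes, with a log2 ratio of 0.61 (adjusted p = 0.175 from limma over all probe sets).

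**Figure D2:**
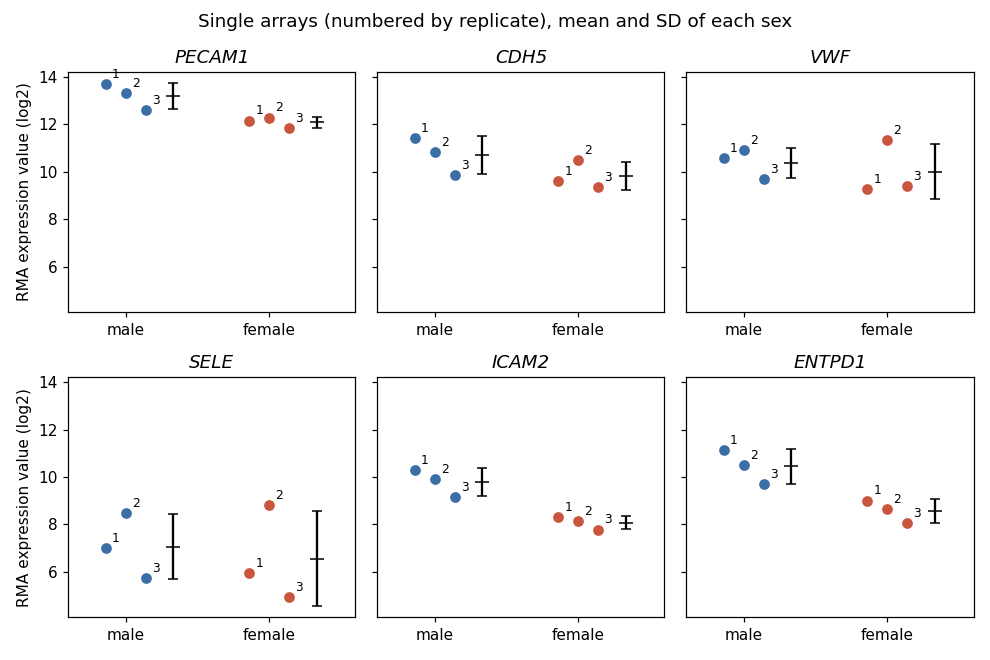
RMA expression values (log2) of 6 endothelial markers on the 3 male (left) and 3 female (right) arrays, numbered by replicate, with bars for each sex's mean and SD. PECAM1, ICAM2 and ENTPD1 do not overlap between the sexes, CDH5, VWF and SELE do, and female replicate 2 is the highest array for VWF and SELE.

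Receptors and signaling genes were mostly higher in males, with BMX as the exception. ADGRL4 (ELTD1), an adhesion G-protein coupled receptor of endothelium, was at 8.37, 7.80 and 7.06 in males and 6.03, 6.18 and 5.76 in females. It rose with the CV filter, by 1.75 on the log2 scale (standard error 0.31, adjusted p = 0.0259 from limma, and 0.0783 over all probe sets), a 3.37-fold difference. TIE1 and TEK are the tyrosine kinases of the angiopoietin system, TEK as the receptor of the ligands and TIE1 as its partner. TIE1 was at 10.68, 10.25 and 9.50 in males and 8.86, 9.36 and 8.86 in females, and TEK at 11.54, 10.96 and 10.07 in males and 9.55, 10.12 and 9.64 in females. TIE1 did not overlap, while for TEK female replicate 2 stood just above male replicate 3. Their log2 ratios were 1.12 and 1.09 (adjusted p = 0.166 and 0.215 from limma over all probe sets). TEK had 2 further probe sets, with log2 ratios of 0.69 and 0.08.

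S1PR1, the receptor through which endothelium senses sphingosine-1-phosphate and which lymphocytes share, was at 13.32, 12.87 and 12.05 in males and 11.78, 12.37 and 11.35 in females. Its 3 probe sets gave log2 ratios of 0.92, 0.87 and 0.92, and in each the sexes overlapped. RAMP2, the partner that turns the calcitonin receptor-like receptor into an adrenomedullin receptor, was at 13.22, 12.86 and 12.57 in males and 12.12, 12.39 and 12.08 in females. RAMP2 did not overlap, with a log2 ratio of 0.69 (adjusted p = 0.162 from limma over all probe sets). ECSCR, a surface protein of endothelium that modulates growth factor signaling, had log2 ratios of 1.14 and 1.04 at its 2 probe sets and overlapped at both. ENG, the endoglin co-receptor of the TGF-β family that stromal cells and macrophages also make, had a log2 ratio of 0.41. NOTCH4 and its ligand DLL4 differed least, at 0.09 and 0.11, with ranges of 7.22 to 7.58 and 6.58 to 7.10 over all arrays.

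BMX, a cytoplasmic tyrosine kinase that leukocytes share, ran the other way. It was at 6.09, 6.01 and 5.25 in males and 6.42, 6.75 and 7.10 in females. Every female stood above every male for BMX, with a log2 ratio of -0.97 (standard error 0.26, adjusted p = 0.169 from limma over all probe sets and 0.103 with the CV filter), and the gene passed neither test.

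Of the transcription factors, LMO2 and ERG were measured. LMO2, which bridges transcription factors of endothelial and blood cells, was at 11.46, 11.11 and 10.61 in males and 9.54, 9.93 and 9.24 in females. It rose with the CV filter (log2 ratio 1.49, standard error 0.25, adjusted p = 0.0334 from limma, and 0.0732 over all probe sets). ERG, an ETS factor that maintains endothelial identity, was at 9.91, 9.53 and 9.26 in males and 9.24, 9.93 and 10.30 in females. ERG was highest on female replicate 3, the array on which 21 of the 34 markers were lowest, and its log2 ratio of -0.25 had a standard error of 0.29.

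Among lectin-like and scavenger receptors, CLEC14A, a C-type lectin of endothelium, was at 11.98, 11.23 and 11.07 in males and 9.92, 10.35 and 9.51 in females. CLEC14A rose with the CV filter (log2 ratio 1.50, standard error 0.29, adjusted p = 0.0395 from limma, and 0.0997 over all probe sets). LYVE1, the hyaluronan receptor of lymphatic endothelium that tissue macrophages share, was at 8.53, 9.01 and 8.60 in males and 8.83, 9.25 and 8.63 in females. Its 3 probe sets gave log2 ratios from -0.31 to -0.19, all overlapping.

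Genes of permeability and vessel tone were all higher in the mean. ENTPD1, the ectonucleotidase that clears ATP and ADP at the vessel wall, had the highest log2 ratio of the 34 markers. It was at 11.14, 10.50 and 9.70 in males and 9.01, 8.65 and 8.05 in females. The sexes did not overlap and the rise was 3.68-fold (log2 ratio 1.88, standard error 0.39, adjusted p = 0.0287 from limma after the CV filter and 0.113 over all probe sets). NOSTRIN, which directs the trafficking of endothelial nitric oxide synthase, was at 8.74, 8.19 and 7.61 in males and 7.10, 7.05 and 6.66 in females. NOSTRIN had a log2 ratio of 1.24 and passed neither test (adjusted p = 0.127 from limma over all probe sets and 0.0576 with the CV filter). NOS3, the nitric oxide synthase itself, was at 11.86, 11.45 and 10.49 in males and 10.40, 11.01 and 9.49 in females. NOS3 overlapped between the sexes, with a log2 ratio of 0.97 (adjusted p = 0.339 from limma over all probe sets).

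AQP1, a water channel that red cells and stromal cells also make, did not overlap and had log2 ratios of 0.46 and 0.98 at its 2 probe sets. TM4SF1, a surface protein of endothelium and epithelium, was at 11.80, 11.16 and 10.67 in males and 10.82, 11.66 and 10.51 in females, a log2 ratio of 0.22 within a wide overlap. ARHGEF15 was at 9.35, 8.75 and 8.05 in males and 6.98, 7.30 and 6.35 in females. ARHGEF15 rose with the CV filter (log2 ratio 1.84, standard error 0.36, adjusted p = 0.0280 from limma, and 0.102 over all probe sets).

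Probe sets of a gene disagreed in sign or call for 3 of the 12 markers that had several. CAV1, the coat protein of caveolae that fibroblasts and smooth muscle also make, had 3 probe sets from the annotation with log2 ratios of 0.19, 0.52 and 0.83. Its last, named by the study's list, read 8.82, 9.41 and 8.37 in males and 10.18, 10.17 and 10.15 in females. That probe set fell by 1.30 (adjusted p = 0.0483 from limma after the CV filter). CD93, a receptor of endothelium and myeloid cells, had its highest mean at a probe set with 7.92, 7.85 and 7.61 in males and 7.83, 8.70 and 8.39 in females, a log2 ratio of -0.52. The CD93 probe set of the study's list read 7.81, 8.42 and 7.67 in males and 6.60, 6.77 and 6.15 in females and rose with the CV filter (log2 ratio 1.46, adjusted p = 0.0334 from limma), and its lowest probe set was at -0.04. The third probe set of ESAM, at 7.02 to 7.56 on all arrays, had a log2 ratio of -0.26, while its first and second gave 1.59 and 1.56. For CAV1 and CD93 the direction therefore depends on the probe set. The opposing probe set of each was named by the study's list because it had been called. Its direction and adjusted p are no independent evidence. The annotated probe sets of each of these genes shared a sign. Probe sequences were not used here. Over all 54 probe sets of the markers, 45 had a higher mean in males.

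**Figure D3:**
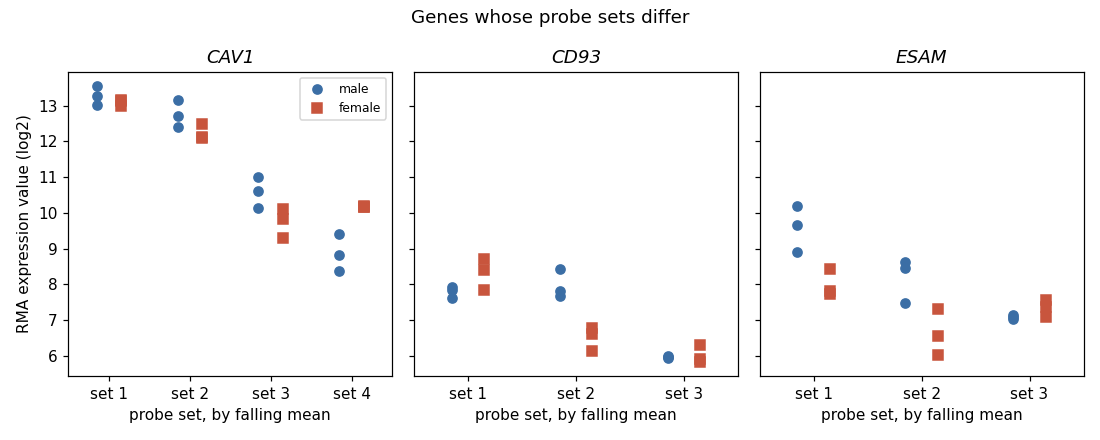
RMA expression values (log2) of every probe set of CAV1, CD93 and ESAM, ordered by falling mean, with males as circles and females as squares. The last probe set of CAV1 is lower in males, and the second probe set of CD93 is higher in males while the first is lower in the mean.

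Most markers were high or low together from animal to animal within a sex. For each gene, the deviation of an array from the mean of the 6 arrays was taken. The median of these deviations over the 34 markers was 0.82, 0.58 and -0.11 on male replicates 1, 2 and 3, and -0.50, -0.11 and -0.75 on female replicates 1, 2 and 3. Over all probe sets the corresponding medians lay between -0.02 and 0.02. Male replicate 1 was the highest array for 26 of the 34 markers, against 22.9% of all probe sets, and female replicate 3 was the lowest for 21, against 17.9% of all probe sets. The 8 other markers peaked on female replicate 2 (SELE, VWF, CD93 and LYVE1), female replicate 3 (BMX and ERG) or male replicate 2 (NOTCH4 and DLL4).

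Male replicate 3 and female replicate 2 lay close in these genes. The median difference between them over the 34 markers was 0.02, and 18 markers were higher on male replicate 3. Against the same female, male replicates 1 and 2 were higher in 27 and 25 markers, by a median of 0.84 and 0.49. Within males, replicate 1 exceeded replicate 3 in 32 of 34 markers by a median of 0.99, where 48.1% of all probe sets were higher on replicate 1. Replicate 2 exceeded replicate 3 in 33 of 34 by a median of 0.64, where 48.6% of all probe sets were. Within females, replicate 2 exceeded replicate 3 in 29 of 34 by a median of 0.56, where 44.6% of all probe sets were. CDH5, NOS3 and ECSCR, listed here as known mainly from endothelium, differed by 1.59, 1.38 and 1.72 between male replicates 1 and 3, more than their differences between the sexes. In size, the same held for SELE, TEK, TIE1, EGFL7, ERG, NOTCH4 and DLL4, the others of this kind except those named next. ADGRL4, ARHGEF15, CLEC14A, NOSTRIN and CLDN5, listed in the same way, differed less between these arrays than between the sexes. For ADGRL4 it was 1.31 against 1.75.

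**Figure D4:**
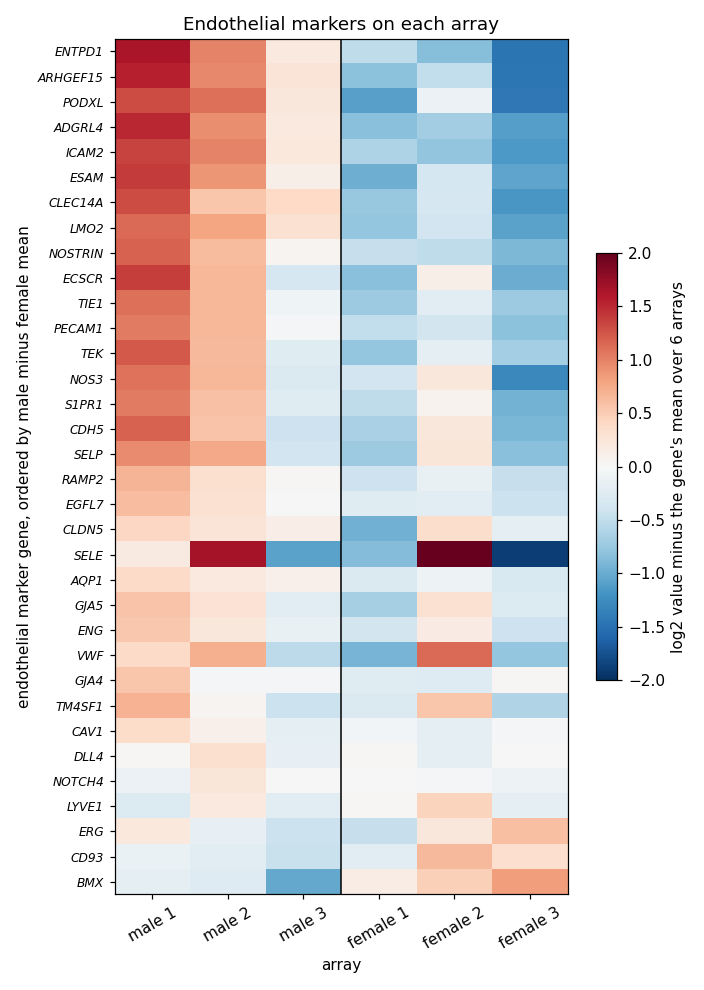
Deviation of each of the 34 endothelial markers (rows, ordered by male minus female mean) from its mean over the 6 arrays, on the log2 scale, with the 3 male arrays left of the 3 female arrays. Red is above and blue below the mean. Male replicate 1 is the highest array in 26 rows and female replicate 3 the lowest in 21, and VWF and SELE stand out on female replicate 2.

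The spread between animals of a sex was wide for these genes. The median within-sex SD of the 34 markers was 0.45, against 0.17 for all probe sets, and 32 markers lay above 0.17. The range of the 3 males had a median of 1.07 over the markers and that of the 3 females 0.69, where all probe sets had 0.26 and 0.31. In 21 of the 34 markers the range within males or within females exceeded the difference between the sexes. This is a smaller share than the 87.6% of all probe sets in which it did.

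The calls changed with the array left out. Each such fit also has fewer arrays, and this effect was not separated from that of the animal. Of the 8 markers called with the CV filter, the lowest log2 ratio in these fits was 1.23 (CLEC14A). With the CV filter, 0 markers were called without male replicate 1, male replicate 2 or female replicate 3, and ENTPD1 and ICAM2 were called without female replicate 1. All 8 were called without female replicate 2, and 12 without male replicate 3, with NOSTRIN, TIE1, TEK and ECSCR added. Without male replicate 3, 9.45% of the probe sets kept by the filter were called higher, and with each of the other arrays left out 1.70% to 4.85% were. Over all probe sets, limma called 10 markers higher without male replicate 3, where it called 0.704% of all probe sets higher, and 0 without any other single array. PECAM1 was among the 10 (log2 ratio 1.41, adjusted p = 0.0340 from limma). The median log2 ratio of the 34 markers was 1.22 without male replicate 3, 1.20 without female replicate 2, 0.54 without male replicate 1 and 0.60 without female replicate 3. Leaving out male replicate 2 or female replicate 1 gave 0.71 and 0.70.

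The markers known mainly from endothelium were compared with those that other cells also make. The 15 genes of the first kind had a median log2 ratio of 0.97, and 14 had a higher mean in males. The 19 genes shared with platelets, leukocytes, red cells, muscle or stroma had a median of 0.46, and 16 had a higher mean in males. The difference between these kinds was not tested. On male replicate 1 the median deviation was 1.10 for the first kind and 0.68 for the shared genes, and on female replicate 3 it was -0.90 and -0.60.

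Other genes of endothelium were read beside the markers. Of 50 listed genes that are not among the markers, 30 were measured, 20 of them higher in the male mean, where 58.3% of the annotated genes were, and their median log2 ratio was 0.35. The sexes did not overlap in 12, all higher in males, as in 11.1% of all probe sets and 15.7% of the annotated genes. With the CV filter CALCRL, the receptor that RAMP2 partners, rose by 1.42 (adjusted p = 0.0339 from limma), and so did SLC9A3R2, a scaffold protein, by 2.06 (adjusted p = 0.00990 from limma), while over all probe sets 0 of the 30 were called and 10 were higher at an unadjusted p under 0.05, where 8.08% of all probe sets were. PROCR, the endothelial protein C receptor, had a log2 ratio of 1.44 and the homeobox gene HHEX one of 1.38, neither passing. Male replicate 1 was the highest array for 15 of the 30 genes and female replicate 3 the lowest for 11. KDR, the main VEGF receptor of endothelium, read 4.23 to 4.79 at its annotated probe set, under the 25th percentile, and at the probe set of the study's list 9.53, 9.23 and 8.62 in males and 6.07, 7.05 and 7.16 in females (log2 ratio 2.37, adjusted p = 0.00687 from limma after the CV filter). CLIC5, a chloride channel family protein, was named only by the study's list and so is not among the 30. Its brighter probe set read 11.65, 11.26 and 10.70 in males and 9.27, 9.45 and 8.67 in females and passed over all probe sets too (log2 ratio 2.07, adjusted p = 0.0454 from limma). The KDR and CLIC5 probe sets of that list were listed because they had been called.

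Genes of VICs, the main other cell of the leaflet, had other arrays high and low. Of 27 listed VIC and fibroblast genes, 20 were measured, and 16 had a lower mean in males (median log2 ratio -0.28). Male replicate 1, the highest array for the endothelial markers, was the lowest for 15 of these 20 genes, where it was the lowest for 23.1% of all probe sets. The mean log2 value over the VIC list was 12.32 to 12.53 in males and 12.46 to 12.66 in females, while that over the endothelial markers was 9.40 to 10.31 in males and 8.90 to 9.56 in females. None of the 20 was under the 25th percentile on all arrays. DCN, the proteoglycan decorin of the leaflet matrix, was at 13.91, 14.12 and 14.12 in males and 14.28, 14.49 and 14.52 in females, a log2 ratio of -0.38 without overlap (adjusted p = 0.199 from limma over all probe sets). S100A4 and MFAP5 ran the other way, at 1.20 and 1.64, and MFAP5 rose with the CV filter (adjusted p = 0.0439 from limma). The part of the VIC and endothelial shares of RNA in these differences was not tested.

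**Figure D5:**
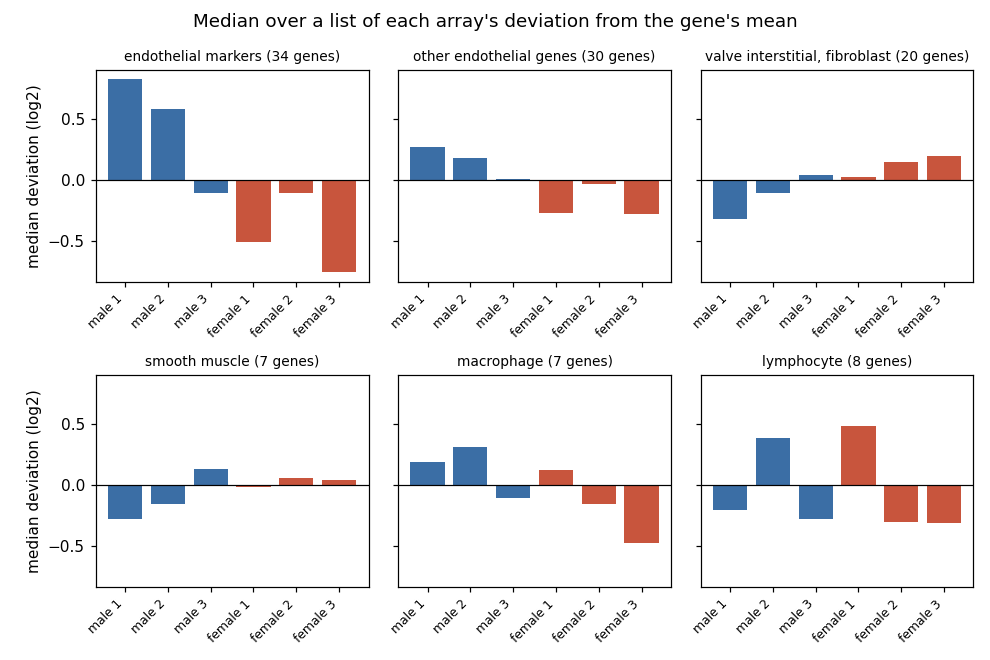
Median over the measured genes of 6 cell type lists of each array's deviation from the gene's mean over 6 arrays (log2), with males left of females. The endothelial markers run from 0.82 on male replicate 1 to -0.75 on female replicate 3, and the VIC and fibroblast genes from -0.32 to 0.19 on the same arrays.

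Blood cells share several of the markers, so their own genes were read as well. Of 10 platelet genes 3 were measured. PPBP, a defining platelet chemokine, read 3.33 to 3.86 in males and 3.00 to 3.35 in females, under the 25th percentile on all 6 arrays. ITGA2B read higher, at 7.49 to 7.63 in males and 7.54 to 7.84 in females, above the median on all 6 arrays. GP9 read 7.03 to 7.11 in males and 7.09 to 7.11 in females. The mean over the 3 genes was 5.95 to 6.17 in males and 5.88 to 6.08 in females. Of 9 red cell genes 3 were measured, and the hemoglobin gene HBB read 9.74 to 9.86 in males and 9.65 to 10.04 in females. The red cell mean was 6.97 to 7.04 in males and 6.91 to 6.97 in females.

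Of 12 macrophage genes 7 were measured, 6 of them above the 75th percentile on all arrays, with a mean of 10.95 to 11.33 in males and 10.53 to 11.23 in females. Their median log2 ratio was 0.28, and they peaked on male replicate 2 in 4 of 7 cases and on male replicate 1 in none, while 5 of 7 were lowest on female replicate 3, as most endothelial markers were. Of 12 lymphocyte genes 8 were measured, with means of 5.90 to 6.60 in males and 5.64 to 6.75 in females, and 6 of the 8 peaked on female replicate 1. Of 10 smooth muscle genes 7 were measured, with means of 9.72 to 10.31 in males and 10.09 to 10.17 in females and a median log2 ratio of -0.13. None of these 7 genes peaked on male replicate 1, was called over all probe sets or was kept by the CV filter. In the pericyte list, 5 of 10 genes were measured, with means of 7.79 to 8.17 in males and 6.93 to 7.84 in females. RGS5, a pericyte gene, was at 9.18, 10.20 and 9.13 in males and 6.86, 8.76 and 5.21 in females, while PDGFRB was lower in every male (11.10, 11.34 and 11.43) than in every female (11.45, 11.68 and 11.77). Of 12 cardiomyocyte genes 9 were measured, 5 of them under the 25th percentile on all arrays, with means of 5.40 to 5.50 in males and 5.31 to 5.34 in females. Of 6 lymphatic endothelial genes, PDPN and CCL21 were measured beside the marker LYVE1, with log2 ratios of 0.02 and 0.08. Of 10 nerve and melanocyte genes 4 were measured, with means of 6.60 to 6.79 in males and 6.82 to 7.22 in females and a median log2 ratio of -0.19. The part of these cells in the result for the endothelial markers was not tested.

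Signals that act on endothelium differed in direction among themselves. Of 14 listed genes of the VEGF, angiopoietin, ephrin, adrenomedullin and Notch systems 7 were measured, and the male mean was higher in 4 and lower in 3. VEGFA had a log2 ratio of 0.84, with the sexes overlapping, JAG1 one of 0.78, EFNB2 one of 0.73 and ANGPT1 one of 0.28. Those of VEGFB, ANGPT2 and ADM were -0.09, -0.14 and -0.29. No gene of this list was called over all probe sets, and 3 were higher at an unadjusted p under 0.05 from limma, where 8.08% of all probe sets were. Only 2 of the 7 were kept by the CV filter, and neither was called.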

How the data were processed

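The deposited values are log2 expression values, 1 column per array, that the authors made from CEL files with RMA in R 2.12.0. They hold 24123 probe sets, 124 of them controls, and were used as they are. Total RNA (400 ng per sample) had been labelled. limma 3.58.1 in R 4.3.3 was fitted to the 23999 probe sets other than controls (lmFit, eBayes, no covariate), with males over females as the contrast. A second fit kept only the 10% of 24123 whose log2 values had the highest CV (2412), since the authors filtered on the CV. Their text does not name the share kept, so 10% was taken from earlier work on these data. Calls needed a Benjamini-Hochberg adjusted p under 0.05 and at least 2-fold. Standard errors are those of the fit over all probe sets.

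The annotation gives 1 gene for 10069 probe sets, several for 198 and none for 13732. The study's list of called probe sets names 183. Counts of the other lists use the annotation alone. The members, lists and tests were chosen with earlier results of these data known. Named in full are PECAM1, VWF, CDH5, called members, the 5 highest and 5 lowest fold changes and members with disagreeing probe sets, then the others by role. Genes of other lists that are named without a call were chosen after their values were seen.

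Labels number animals within each sex. The p values from limma set the difference between the sexes against the spread between animals, moderated over the probe sets fitted. An exact permutation test of 3 against 3 cannot go below p = 0.1 and was not used. The limma step was tested on simulated data. Promoter motifs were planned and are not analysed here. Plots were made in Python 3.11.15 (matplotlib 3.10.9). Alternatives are given in the closing section.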

Additional observations from a re-analysis of the deposited data

How the results depend on the processing

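The 30 markers with a higher mean in males, the 15 without overlap and the median of 0.79 stayed within the limits used for a change under each whole-sample alternative (the mean of all probe sets of a gene, annotation names alone, low values left out, arrays centred on their median). Leaving out 1 array at a time gave 27 to 30 markers with a higher mean, 16 to 25 without overlap and a median log2 ratio of 0.54 to 1.22. The count without overlap was 23 without male replicate 3 and 25 without female replicate 2, and 16 or 17 without each other array. These counts take both directions together. Leaving out an array can only keep or raise them, so their rise is no sign of a firmer difference. No share over all probe sets was taken for these fits. Leaving out 1 array gave 0 to 10 markers called over all probe sets (10 without male replicate 3) and 0 to 12 with the CV filter (0 without male replicate 1, male replicate 2 or female replicate 3, and 2 without female replicate 1). With array weights, whose estimation stopped before its tolerance, limma called 11 over all probe sets and 16 with the CV filter, where it called 1.17% and 22.0% of the probe sets tested. With names from the annotation alone, 5 were called with the CV filter, since the other 3 drop out. The labels do not say whether the replicate number pairs the animals. Deviations of same-numbered arrays correlated at -0.10, 0.01 and 0.27, and not every array correlated best with its own number. With 3 arrays per sex, these correlations cannot decide whether the animals were paired. With the replicate number as a block, 7 were called over all probe sets and 9 with the CV filter, where 0.850% and 12.5% of the probe sets tested were. Neither an intensity trend (6 called with the CV filter) nor 5% or 20% in the filter (8 and 9), the CV of linear values (8) or no minimum fold (0 and 8) moved a count by more than 1.5 times. The share of the probe sets tested that was called did move. It was 8.17% with the trend and the CV filter, 12.4% and 5.41% at 5% and 20%, and 10.2% with linear values. No such share was taken without a minimum fold. Of 17 genes followed singly, CD93 changed sign with the mean of its probe sets (log2 ratio 0.30), LYVE1 with array weights (0.0632) and NOTCH4 without male replicate 2 (-0.0108, range -0.0108 to 0.17), and 14 kept their direction. The causes were not tested.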

Other observations

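Some endothelial genes outside the marker list were, like most markers, highest on female replicate 2 among the females. Unlike VWF and SELE, the 3 genes given here were highest of all 6 arrays on male replicate 1. ICAM1, an adhesion molecule that endothelium and other cells raise in inflammation, was at 12.00, 11.42 and 10.51 in males and 10.68, 11.52 and 10.03 in females. THBD, the thrombin receptor thrombomodulin, was at 13.38, 13.09 and 12.49 in males and 11.68, 13.16 and 11.29 in females. EDN1, the precursor of the vasoconstrictor endothelin, was at 10.35, 9.22 and 8.90 in males and 8.47, 9.81 and 8.97 in females. None of the 3 was called in either limma fit, and they were chosen after their values were seen.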
